A study of Mus musculus with 8 samples.

Results

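The genes described here are 10 regulators of mineralization and osteogenic genes, taken from the 19301 genes of a deposited FPKM table by their symbols: Spp1, Runx2, Sp7, Alpl, Ibsp, Tmem119, Ostn, Mgp, Enpp1 and Phospho1. They were measured by mRNA sequencing in primary mouse tendon stem cells (TSCs), 4 libraries from cells in high fat, high glucose (HFHG) medium and 4 from cells in low glucose (LG) medium, harvested after 4 days. HFHG medium held a high glucose concentration with palmitic acid, a saturated fatty acid, and LG medium held 5.5 mM glucose with the solvent DMSO. According to the methods of the study, the cells were dissociated from patellar tendons with collagenase, the mice of the study were C57BL/6J, and each group had 4 biological replicates. The age of the donor mice and the number of mice behind each library are not given in the sources used here. No osteogenic supplement is named for the sequenced cultures, and HFHG medium was meant to imitate the glucose and lipid load of diabetes rather than to induce bone. The comparison of the groups asks how high fat and high glucose alter the transcripts of a progenitor that can ossify.

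The members were chosen by this same contrast: earlier results on the HFHG and LG values of several of them were known when the list was made. Their group differences are therefore a description and carry no p-value. FPKM is the read number of a gene scaled to its length and to the depth of the library, so levels in FPKM can be compared between genes. The reads behind the FPKM could be recovered as whole numbers, and the libraries held between 34308108 and 37362725 reads, which makes the depth of the groups alike. Of the osteoblast markers fixed for this work (Sp7, Bglap, Ibsp, Alpl, Dmp1, Ifitm5, Phex and Col11a2), 0 of 8 passed the filter on low values, and their summed level was 1.099 to 1.982 FPKM in HFHG and 0.681 to 1.55 FPKM in LG. Bglap2, a copy of Bglap outside this list, did pass it, with a mean of 1.96 FPKM in HFHG and 1.67 FPKM in LG. All 10 tendon cell markers passed the filter, and their sum was 2104 to 2150 FPKM in HFHG and 1304 to 1344 FPKM in LG. The tendon markers Scx and Tnmd themselves were low, Scx with 2.27 ± 0.558 FPKM in HFHG and 1.45 ± 0.336 FPKM in LG and Tnmd with 1.09 ± 0.0908 and 0.614 ± 0.298 FPKM (SD, n = 4 each). Both were called higher in HFHG (adjusted p = 0.0138 and 0.0164 by limma), although the Scx groups overlapped. In the whole tendon list 7 genes were called higher and 2 lower, Mkx and Egr1. Mkx had 6.73 ± 0.54 FPKM in HFHG and 8.62 ± 0.69 FPKM in LG, and Egr1 had 16.0 ± 0.94 and 21.1 ± 0.23 FPKM (SD, n = 4 each; adjusted p = 7.49e-04 and 3.80e-06 by limma). Macrophage markers were also present, and Lyz2, a lysozyme gene of macrophages, averaged 1637 ± 19.4 FPKM in HFHG and 1765 ± 32.6 FPKM in LG (SD, n = 4 each).

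Mineralization depends on the balance of phosphate, which forms hydroxyapatite with calcium, and pyrophosphate, which blocks crystal growth. ENPP1 makes pyrophosphate outside the cell, tissue-nonspecific alkaline phosphatase (the product of Alpl) breaks it down, and PHOSPHO1 releases phosphate inside matrix vesicles. RUNX2 and then osterix (the product of Sp7) drive the osteoblast program, while matrix Gla protein (Mgp) and osteopontin (Spp1) bind mineral and restrain its growth.

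Because RUNX2 is the transcription factor that defines the osteoblast program, the 250 bases upstream of the start are shown for the members in which its core motif TGTGGT was found, and for Ibsp, a neighbour of Spp1, in which it was not. They come from RefSeq (GRCm38.p6), read 5′ to 3′ along the gene, and the capitals mark the motif, which lay on the opposite strand and is therefore read as ACCACA. Promoters were found there for 6 of the 10 members.
Spp1 (chr5:104434861-104435110, plus strand): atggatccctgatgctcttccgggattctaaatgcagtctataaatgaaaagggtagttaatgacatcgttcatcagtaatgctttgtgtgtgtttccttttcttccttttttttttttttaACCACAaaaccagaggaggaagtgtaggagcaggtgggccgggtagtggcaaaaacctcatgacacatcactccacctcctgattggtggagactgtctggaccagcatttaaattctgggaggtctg
Ibsp (chr5:104299037-104299286, plus strand): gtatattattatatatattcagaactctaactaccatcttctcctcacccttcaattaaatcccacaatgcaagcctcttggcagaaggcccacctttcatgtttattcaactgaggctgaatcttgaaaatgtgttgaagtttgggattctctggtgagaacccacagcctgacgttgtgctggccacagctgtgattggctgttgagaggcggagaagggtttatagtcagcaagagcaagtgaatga
Enpp1 (chr10:24712160-24712409, minus strand): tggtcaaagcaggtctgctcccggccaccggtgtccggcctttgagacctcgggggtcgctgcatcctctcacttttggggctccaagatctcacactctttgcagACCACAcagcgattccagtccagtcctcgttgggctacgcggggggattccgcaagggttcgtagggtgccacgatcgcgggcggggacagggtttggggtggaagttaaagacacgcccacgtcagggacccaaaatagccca
Runx2 (chr17:44814628-44814877, minus strand): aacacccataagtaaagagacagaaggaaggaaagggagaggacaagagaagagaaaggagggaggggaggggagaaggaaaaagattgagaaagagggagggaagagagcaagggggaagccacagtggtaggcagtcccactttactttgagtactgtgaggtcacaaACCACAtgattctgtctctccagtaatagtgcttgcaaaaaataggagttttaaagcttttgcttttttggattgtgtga

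In Spp1 the motif began 128 bases before the start, in Enpp1 144 bases and in Runx2 80 bases. Searched on both strands, TGTGGT was in 3 of 8 promoters of the members, since Spp1 and Alpl have several starts, and in 14.05% of all 32851 promoters of this length. The TATA motif TATAAA was in 3 of the 8 and in 12.4% of all, and in Ibsp it lay 28 bases before the start, on the opposite strand. The E-box CACGTG was found in Phospho1, and in 6.02% of all promoters. The cyclic AMP element TGACGTCA and the SMAD palindrome GTCTAGAC were in 0 of the 8. The promoters of Phospho1 and of the first Alpl start held 75.6% and 68.4% G and C, against 43.6% at the first Spp1 start and in Ibsp, 35.6% at the second Spp1 start and a median of 52.4% over all promoters. A match of letters is no measurement of binding.

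The members spanned a wide range of levels. Spp1 was among the 3 most abundant of all 19301 genes in every library, Tmem119 and Phospho1 lay between 12.97 and 40.83 FPKM, and Mgp, Runx2, Enpp1 and Ostn lay between 0.956 and 10.8 FPKM. Alpl, Ibsp and Sp7 never exceeded 0.242 FPKM. In HFHG the order was Spp1, Tmem119, Phospho1, Mgp, Runx2, Enpp1, Ostn, Alpl, Ibsp and Sp7, and only Alpl and Ibsp overlapped with each other among neighbours. In LG it was Spp1, Phospho1, Tmem119, Ostn, Runx2, Mgp, Enpp1, Alpl, Ibsp and Sp7, with overlap between Alpl and Ibsp and between Ibsp and Sp7. Ostn thus moved from place 4 in LG to place 7 in HFHG, and Mgp from place 6 to place 4.

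**Figure D1:**
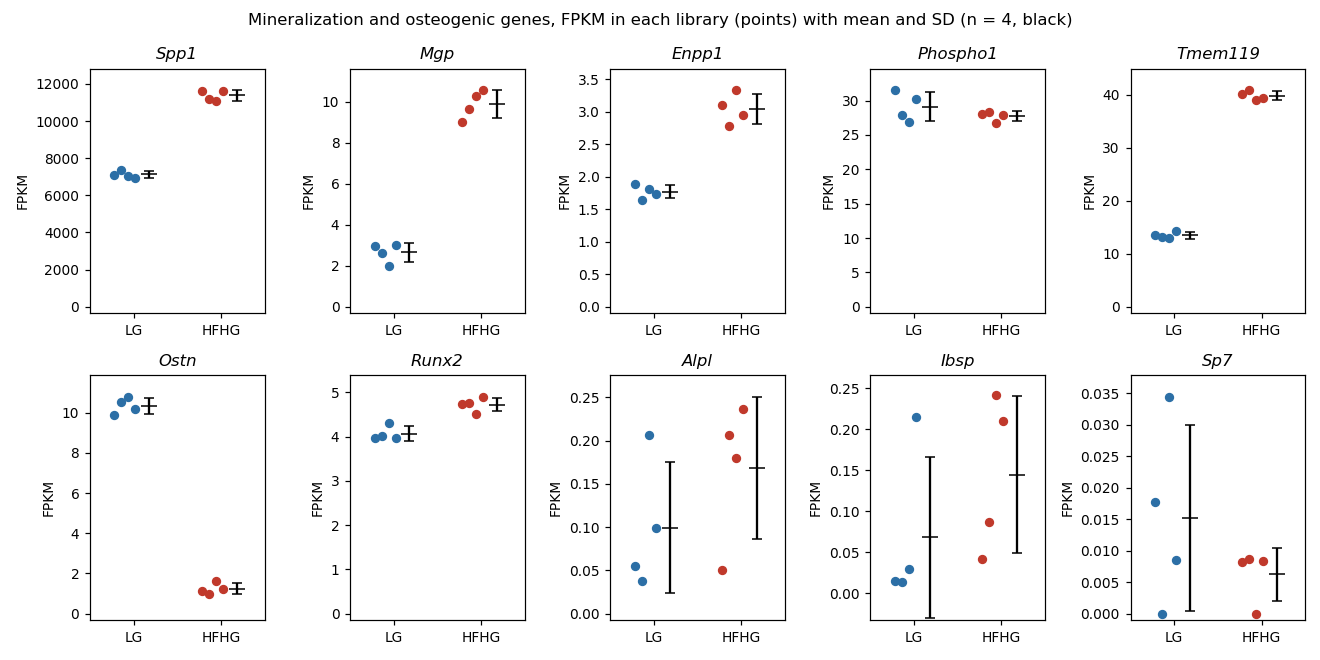
FPKM (y axis, linear, a separate scale for each gene) of the 10 members in LG and HFHG libraries. Each point is 1 library and the black bar is the mean with its SD (n = 4). The points of Spp1, Mgp, Enpp1, Tmem119, Ostn and Runx2 do not overlap between the groups, and those of Phospho1, Alpl, Ibsp and Sp7 do.

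Genes with at least 0.5 FPKM in at least 4 of 8 libraries were tested, and 7 of the 10 members passed this filter. Among these 7, 5 were called higher in HFHG at an adjusted p-value below 0.05 (limma with Benjamini-Hochberg adjustment over 11710 genes), 1 was called lower and 1 was not called. Calls were frequent across the transcriptome: 64.8% of all tested genes were called, 34.0% as higher and 30.8% as lower. With a log2 fold change above 1 at an unadjusted p-value below 0.05, a rule like that of the study, 2 members stood among the higher genes (Mgp and Tmem119; 3.68% of all tested genes), and with one below -1, Ostn stood among the lower genes (1.65% of all). The groups did not overlap in 6 of the 7 tested members, against 59.2% of all tested genes. Since the members were selected on this contrast, nothing is read from these counts.

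**Figure D2:**
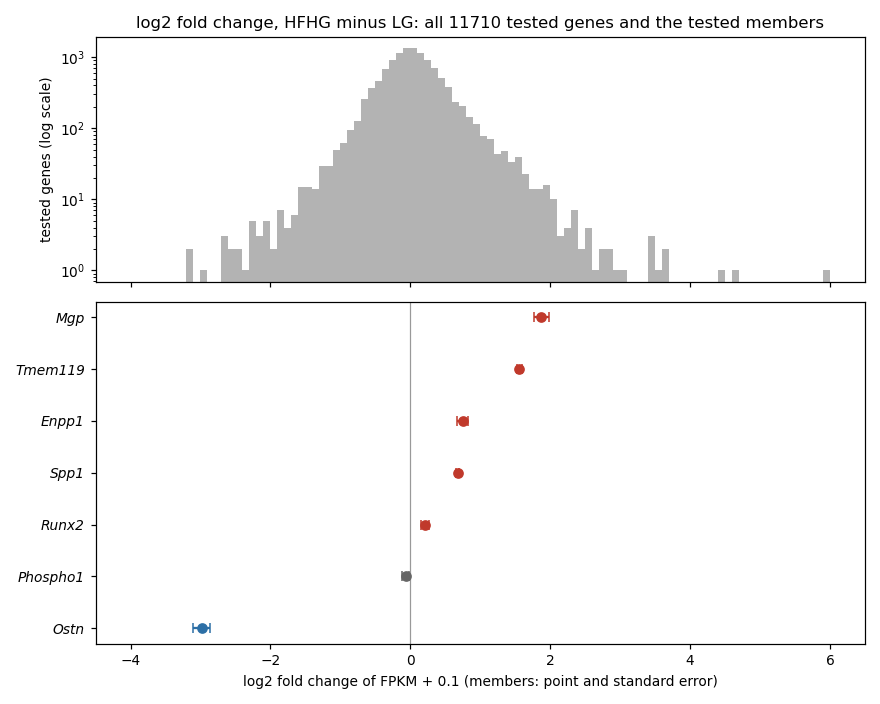
Upper panel, the number of tested genes (log scale) by log2 fold change of HFHG minus LG. Lower panel, the fold change of the 7 tested members with the standard error of the fit, called higher (red), called lower (blue) or not called (grey). Ostn at -2.98 lies in the far lower tail of all genes, and Mgp at 1.87 and Tmem119 at 1.56 lie in the upper tail.

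Spp1 encodes osteopontin, an acidic phosphoprotein of bone matrix that is also secreted by macrophages and binds integrins and CD44. The gene lies at chr5:104435118-104441050 on the plus strand (GRCm38, GENCODE M21). It had 11639, 11182, 11104 and 11604 FPKM in the 4 HFHG libraries and 7086, 7391, 7064 and 6952 FPKM in the 4 LG libraries. All HFHG libraries were above all LG libraries, with means of 11382 ± 278 and 7123 ± 188 FPKM (SD, n = 4 each), a ratio of 1.598 and a log2 fold change of 0.68 ± 0.0248 (SE). This gene alone took 1.78 to 1.87% of the reads of an HFHG library and 1.12 to 1.19% of an LG library. Its rank among all genes hardly differed, being 2 or 3 in HFHG and 3 in LG, and with quantile normalization, which sets a value by its rank, the log2 fold change was 0.04 and the call was lost. Of the macrophage markers, 8 of 9 tested were lower in HFHG, the list summed to 1754 to 1805 FPKM in HFHG and 1938 to 2020 FPKM in LG, and the part of macrophages in the Spp1 level was not tested. In such bulk samples, a change in the number of cells of a type and a change in RNA per cell cannot be told apart.

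Mgp encodes matrix Gla protein, which needs vitamin K for its gamma-carboxylation and keeps soft tissue free of mineral. It had 9.02, 9.66, 10.3 and 10.6 FPKM in HFHG and 2.98, 2.63, 2.01 and 3.01 FPKM in LG. All HFHG libraries lay above all LG libraries, with means of 9.88 ± 0.680 and 2.66 ± 0.462 FPKM (SD, n = 4 each), and the log2 fold change was 1.87 ± 0.109 (SE), the largest increase among the members. The reads behind these values were few, 208 to 238 in an HFHG library and 44 to 66 in an LG library. Counting error alone gives a coefficient of variation of 13.1% in LG, and the libraries varied by 17.4%.

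Enpp1, the pyrophosphate-generating ectoenzyme, had 3.10, 2.79, 3.33 and 2.95 FPKM in HFHG and 1.89, 1.65, 1.81 and 1.74 FPKM in LG. The groups were apart, with a log2 fold change of 0.75 ± 0.0807 (SE). Both genes that restrain mineral by known routes, Mgp and Enpp1, were therefore higher in HFHG, as was Spp1.

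Phospho1, the phosphatase of matrix vesicles, had 28.04, 28.41, 26.7 and 27.9 FPKM in HFHG and 31.5, 27.9, 26.8 and 30.2 FPKM in LG. The groups overlapped, with a log2 fold change of -0.07 ± 0.0481 (SE), and the gene was not called. Its level calls for care, because 89.6% of its annotated exon bases (chr11:95824499-95832140) are also exon of Zfp652 on the same strand and 84.2% are also exon of Abi3 on the opposite strand. Zfp652 had 7.70 ± 0.324 FPKM in HFHG and Abi3 had 0.666 ± 0.116 FPKM (SD, n = 4). How reads in shared exons were assigned is not given in the sources used here, so the Phospho1 value may hold reads of its neighbours. In Spp1, Runx2 and Ostn the shared exon bases with other annotated genes were 18.8%, 5.9% and 12.9%.

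Tmem119 encodes a transmembrane protein of osteoblasts that is also known as a microglial marker, and it lies at chr5:113793729-113800516. It had 40.03, 40.83, 38.98 and 39.33 FPKM in HFHG and 13.45, 13.07, 12.97 and 14.31 FPKM in LG. The groups were far apart relative to their spread, with SDs of 0.816 and 0.608 FPKM, a ratio of 2.96 and a log2 fold change of 1.56 ± 0.0378 (SE). With 3080 to 3283 reads in an HFHG library and 1009 to 1118 in an LG library, it was the best measured of the strongly changed members.

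Ostn encodes osteocrin, also named musclin, a secreted peptide of bone and muscle that binds the natriuretic peptide clearance receptor NPR3. It lies at chr16:27307489-27351212. It had 1.15, 0.956, 1.63 and 1.23 FPKM in HFHG and 9.88, 10.5, 10.8 and 10.2 FPKM in LG. Ostn was the one member called lower in HFHG, at a level 8.33 times higher in LG and a log2 fold change of -2.98 ± 0.119 (SE). Reads were 45 to 78 in an HFHG library and 451 to 508 in an LG library, and the coefficient of variation was 22.8% in HFHG and 3.78% in LG. Among skeletal muscle markers, Acta1 and Mb passed the filter and were called lower in HFHG, the list summed to 1.25 to 4.15 FPKM in HFHG and 5.69 to 6.65 FPKM in LG, and skeletal actin Acta1 had 0.904 ± 0.252 and 3.38 ± 0.378 FPKM (SD, n = 4 each). Mb (myoglobin), although called lower, overlapped between the groups, at 0.0984 to 1.83 FPKM in HFHG and 1.599 to 2.576 FPKM in LG. Without its LG libraries Mb would not have passed the filter, so its call is no support. The muscle genes below the filter went both ways. Tnnt3 (fast troponin T) had 97 reads in HFHG and 19 in LG, and Ckm (muscle creatine kinase) had 35 and 59. The part of muscle transcripts in the Ostn difference was not tested.

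Runx2, the master transcription factor of osteoblasts, had 4.74, 4.76, 4.52 and 4.89 FPKM in HFHG and 3.97, 4.02, 4.31 and 3.97 FPKM in LG. LG replicate 3 came near the lowest HFHG library, but the groups did not overlap. The ratio of the means was 1.16 and the log2 fold change 0.21 ± 0.0570 (SE), the smallest among the called members, and it was no longer called with quantile normalization (log2 fold change 0.14).

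**Figure D3:**
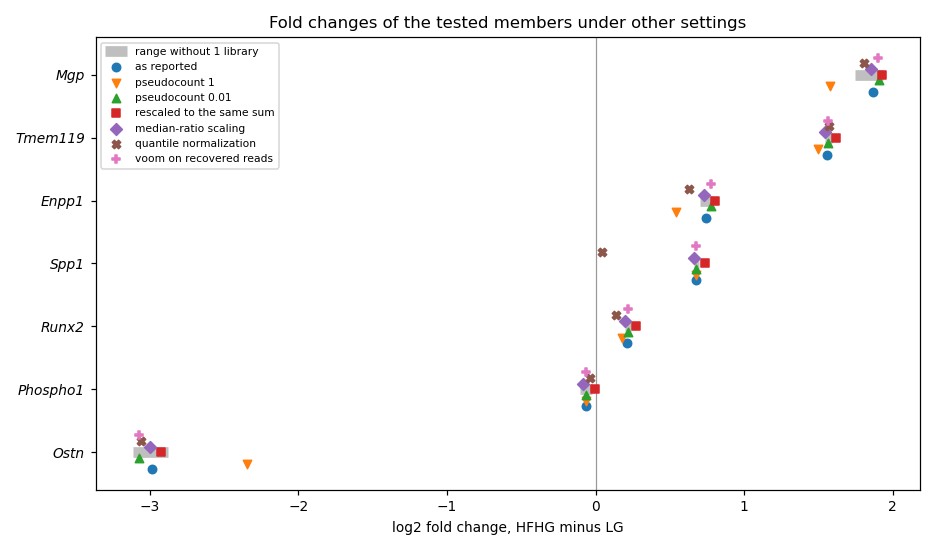
Log2 fold change (x axis) of the 7 tested members as reported and under 6 other settings (symbols), with the range when 1 library is left out (grey bar). Spp1 is at 0.04 with quantile normalization and between 0.66 and 0.74 otherwise, and Ostn moves from -2.98 to -2.35 with a pseudocount of 1.

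Sp7, Alpl and Ibsp lay below the filter and are described by their reads. Sp7, which encodes osterix and acts after RUNX2, had 1, 1, 0 and 1 reads in HFHG and 2, 0, 4 and 1 reads in LG. In the libraries with 0 reads, a count of 0 allows up to 3 reads, or 0.0254 FPKM in HFHG and 0.0252 FPKM in LG. The ratio of summed reads, scaled to the library totals, was 0.418 with an exact 95% interval of 0.0697 to 1.83, so a difference was not detectable at this depth.

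Alpl, the alkaline phosphatase whose activity marks early osteogenesis, had 7, 27, 24 and 32 reads in HFHG and 7, 5, 27 and 13 reads in LG. The groups overlapped, because HFHG replicate 1 was as low as LG and LG replicate 3 as high as HFHG. The scaled ratio was 1.69 with an interval of 1.19 to 2.42, which covers counting error only, while the libraries of a group varied more than counting: the coefficient of variation was 48.6% in HFHG against 21.1% from counting. Without LG replicate 3 the ratio was 2.63, and without LG replicate 2 it was 1.39 (0.965 to 2.02).

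Ibsp, bone sialoprotein, an acidic matrix protein that nucleates mineral, had 3, 6, 17 and 15 reads in HFHG and 1, 1, 2 and 15 reads in LG. LG replicate 4 alone held 15 of the 19 LG reads and lay among the highest HFHG libraries. The ratio was 2.104 (1.19 to 3.84) over all libraries, 7.48 (2.71 to 28.8) without LG replicate 4, and 1.64 (0.859 to 3.16) without HFHG replicate 3. Bglap, which encodes osteocalcin, was as low, with 27 reads summed over HFHG and 23 over LG and a ratio of 1.14 (0.632 to 2.09), and its copies Bglap2 and Bglap3 are so alike that reads may be split among them. Bglap2 held more reads, 135 over HFHG and 111 over LG, passed the filter at 1.96 ± 0.520 and 1.67 ± 0.592 FPKM (SD, n = 4 each) and was not called.

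**Figure D4:**
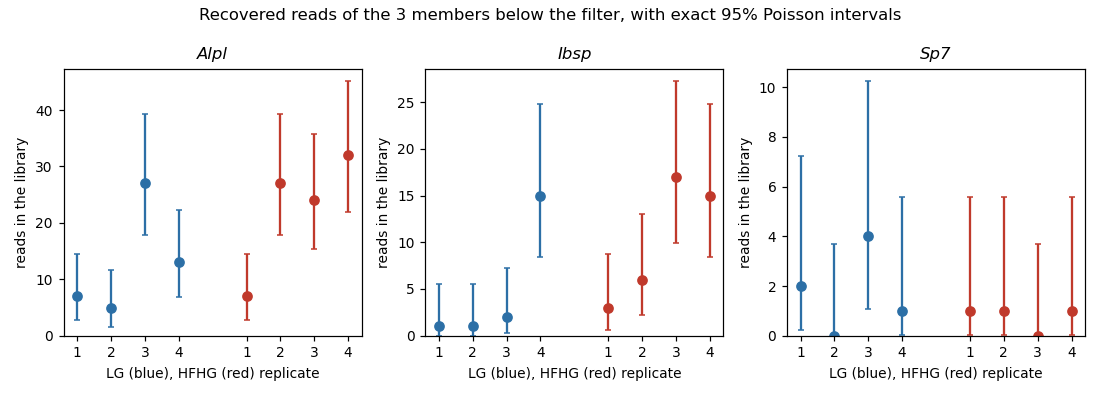
Reads (y axis, linear) of Alpl, Ibsp and Sp7 in each LG (blue) and HFHG (red) library, with exact 95% Poisson intervals that cover counting error only. LG replicate 3 of Alpl (27 reads) and LG replicate 4 of Ibsp (15 reads) lie among the HFHG libraries, and no library holds more than 4 reads of Sp7.

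The study measured Runx2, Sp7 and Alpl elsewhere by qPCR, and its primer pairs show which transcripts that assay reads. They are printed 5′ to 3′ in full lower case.
Runx2 forward: gactgtggttaccgtcatggc
Runx2 reverse: acttggtttttcataacagcgga
Sp7 forward: ggaaaggaggcacaaagaagc
Sp7 reverse: ccccttaggcactaggagc
Alpl forward: ccaactcttttgtgccagaga
Alpl reverse: ggctacattggtgttgagctttt

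Both primers of a pair were found in 12 of 13 annotated Runx2 transcripts with a product of 84 bases, in 2 of 3 of Sp7 with 218 bases and in 5 of 8 of Alpl with 110 bases (GENCODE M21). The annotation behind the FPKM is not given, so whether reads of the other transcripts enter it is not known. For Runx2 the length recovered from the FPKM was 6462 bases, against 8837 merged exon bases in GENCODE M21.

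Other genes were taken from 10 lists, drawn up by role or, for the neighbours of Spp1 and Ibsp, by position on the chromosome. Together the lists held 71 tested genes besides the members. Of these, 38 were called higher in HFHG (53.5%, against 34.0% of all tested genes) and 23 lower (32.4%, against 30.8%), with a median log2 fold change of 0.20 beside 0.02 over all tested genes. The lists were written with earlier results known, so this is a description. Counts in the single lists below stand against the same shares, 34.0% higher and 30.8% lower, and nothing is read from them. All adjusted p-values that follow are from limma with Benjamini-Hochberg adjustment, a value before them in parentheses is the log2 fold change of HFHG minus LG, and levels are given from LG to HFHG as mean ± SD (n = 4 each) unless stated otherwise. These p-values rest on the spread between libraries. Since the number of mice behind each library is not given, how far they cover differences between mice is not known.

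**Figure D5:**
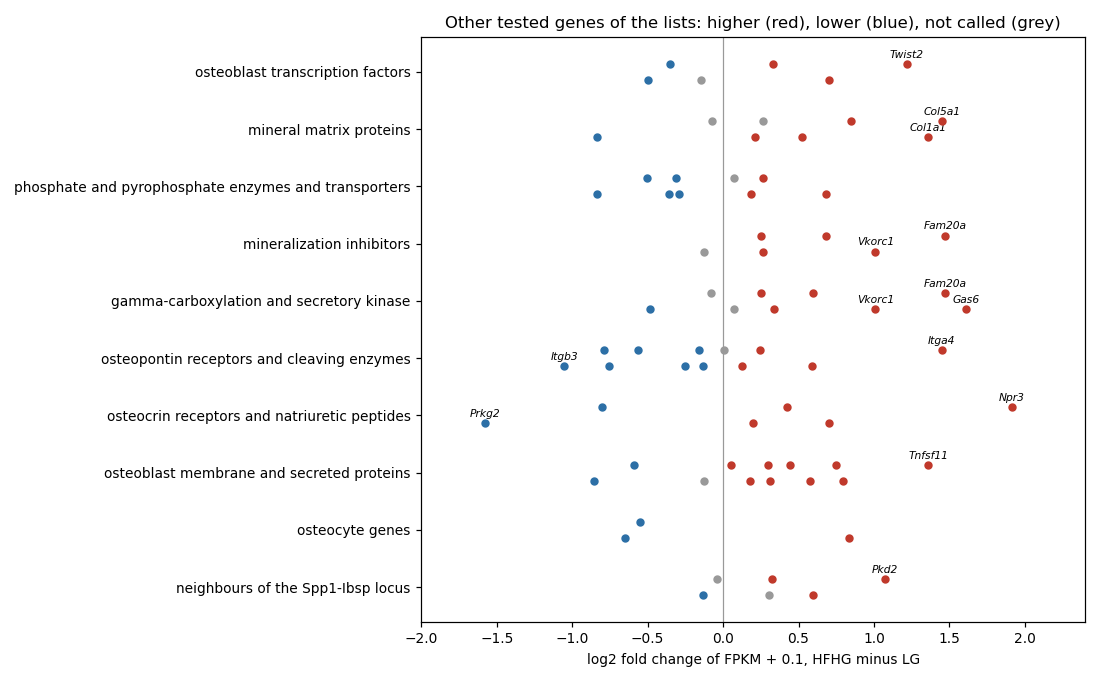
Log2 fold change (x axis) of the tested genes that are no members, by list (y axis), called higher (red), lower (blue) or not called (grey), with names where the change is at least 0.9 in size. Several genes, such as Vkorc1 and Fam20a, stand in more than 1 list. Calls in the list of mineralization inhibitors lie to the right of 0, and those for osteopontin receptors and cleaving enzymes lie on both sides.

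The mineralization inhibitors and the enzymes that activate them were called higher in 5 of 6 tested genes and lower in 0, with a median log2 fold change of 0.47. Fam20a, a pseudokinase that assists the secretory kinase FAM20C, rose from 16.5 ± 0.901 to 45.9 ± 1.246 FPKM (1.47 on the log2 scale; limma, adjusted p = 1.20e-11). Vkorc1, the reductase that recycles vitamin K, rose from 51.8 ± 2.58 to 104 ± 4.06 FPKM (1.01, adjusted p = 2.29e-10 by limma). Ggcx, the carboxylase that uses this vitamin K to modify matrix Gla protein, rose by 0.25 (adjusted p = 0.00230 by limma). Tnfrsf11b (osteoprotegerin) was not called, with 3.47 ± 0.361 and 3.79 ± 0.248 FPKM in HFHG and LG. Sost and Dkk1, inhibitors of Wnt signaling in bone, stayed below the filter.

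Besides Mgp, Gas6 and Pros1 of the gamma-carboxylated proteins were called higher. Gas6, a vitamin K-dependent ligand of TAM receptors, rose from 86.3 ± 2.71 to 263.5 ± 3.63 FPKM (1.61 on the log2 scale; limma, adjusted p = 1.95e-13), and Pros1, protein S, rose from 48.9 ± 1.75 to 73.9 ± 1.88 FPKM (0.59, adjusted p = 5.11e-09 by limma). Postn (periostin) was not called, at 35.2 ± 1.33 FPKM in HFHG and 33.5 ± 1.82 FPKM in LG. In the whole list of gamma-carboxylation and secretory kinases, 6 of 9 tested genes were higher and 1 was lower. The lower one was Fam20c, the kinase that phosphorylates osteopontin and other matrix proteins, which fell from 57.9 ± 1.05 to 41.4 ± 0.823 FPKM (-0.48, adjusted p = 8.85e-09 by limma). The kinase of osteopontin was thus lower while osteopontin mRNA was higher.

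In the list of enzymes and transporters of phosphate and pyrophosphate, 5 of 9 tested genes were lower and 3 higher, with a median log2 fold change of -0.29. Slc20a2, a phosphate importer, fell from 40.6 ± 0.785 to 22.7 ± 0.712 FPKM (-0.84, adjusted p = 2.44e-10 by limma), and the related importer Slc20a1 fell by 0.51 on the log2 scale (adjusted p = 1.06e-07 by limma). In the other direction, Nt5e (CD73), which forms adenosine, rose from 13.3 ± 0.817 to 21.3 ± 0.548 FPKM (0.68, adjusted p = 4.44e-08 by limma). Ank, which is needed for extracellular pyrophosphate, rose by 0.26 (adjusted p = 6.11e-05 by limma). The phosphate importers and the genes of the pyrophosphate side, Ank and the member Enpp1, therefore differed in direction.

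Among mineral matrix proteins, 5 of 8 tested genes were higher and 1 lower. The higher ones were Col5a1, Col1a1, Sparc, Col1a2 and Bmper, of which the first 3 are collagen V, collagen I and osteonectin. Col1a1 rose from 206 ± 3.95 to 529 ± 8.68 FPKM (1.36, adjusted p = 1.95e-13 by limma) and Sparc from 873 ± 22.5 to 1570 ± 8.86 FPKM (0.85, adjusted p = 5.09e-12 by limma). Fbln7 fell by 0.83 on the log2 scale (adjusted p = 9.14e-05 by limma). Collagen I and osteonectin are not particular to bone, and the bone and dentin proteins Dmp1, Mepe and Dspp, which stand beside Spp1 and Ibsp on chromosome 5, were below the filter. Of the other genes around that locus, Pkd2 rose from 24.4 ± 0.7504 to 51.3 ± 1.21 FPKM (1.07, adjusted p = 2.30e-11 by limma) and Sparcl1 by 0.60. Without its HFHG libraries Sparcl1 would not have passed the filter (LG 0.412 to 0.674 FPKM), so its p-value is not given and its call is no support. Of the tested genes around the locus, 3 of 6 were called higher and 1 lower.

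Of the osteoblast transcription factors, 3 of 6 tested were higher and 2 lower. Twist2, which restrains RUNX2, rose from 41.8 ± 1.52 to 97.2 ± 3.37 FPKM (1.22, adjusted p = 1.20e-11 by limma), and Twist1 by 0.33 (adjusted p = 2.66e-04 by limma). Msx1 rose by 0.70 (adjusted p = 0.00352 by limma). Atf4 and Cbfb, whose product is a partner of RUNX2, fell by 0.50 and 0.35 on the log2 scale (adjusted p = 2.40e-09 and 3.88e-06 by limma). Dlx3, Dlx5, Dlx6 and Msx2, homeobox factors of osteoblasts, were below the filter with Sp7. Thus Runx2 was slightly higher, its partner lower, and its known antagonists Twist1 and Twist2 higher.

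The osteoblast membrane and secreted proteins were called higher in 9 of 12 tested genes and lower in 2, beside the member Tmem119. Tnfsf11 (RANKL), the osteoclast cytokine, rose from 1.28 ± 0.283 to 3.41 ± 0.412 FPKM (1.36, adjusted p = 1.90e-06 by limma). Fgfr2 rose by 0.80 and Cthrc1 by 0.75 (adjusted p = 1.17e-04 and 2.46e-04 by limma). Fkbp11 fell from 34.5 ± 2.66 to 19.0 ± 0.976 FPKM (-0.85, adjusted p = 2.68e-08 by limma), and Bmp4 rose by 0.57 (adjusted p = 0.00567 by limma). Bmp2 fell by 0.59 on the log2 scale. Without its LG libraries Bmp2 would not have passed the filter (HFHG 0.368 to 0.618 FPKM), so its p-value is not given and its call is no support. Of osteocyte genes, 3 of 9 in the table were tested: Irx5 rose by 0.84 (adjusted p = 5.31e-04 by limma), and Pdpn, which fell from 694 ± 6.71 to 442 ± 1.70 FPKM, and Capg were lower.

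The receptors and cleaving enzymes of osteopontin went both ways, with 4 of 12 tested genes higher and 7 lower. Itgb3, a chain of the classical osteopontin receptor, fell from 14.3 ± 0.709 to 6.84 ± 0.170 FPKM (-1.05, adjusted p = 8.18e-10 by limma), and Cd44 and Itgav fell by 0.13 and 0.16 on the log2 scale (adjusted p = 5.43e-04 and 0.0154 by limma). Itga4 rose from 0.214 ± 0.0362 to 0.755 ± 0.0474 FPKM, a log2 fold change of 1.45, which became 0.53 with a pseudocount of 1. Itga4 passed the filter only through its HFHG libraries (LG at most 0.265 FPKM), so its p-value is not given. The protease Mmp3, which can cut osteopontin, rose from 1491 ± 16.6 to 2243 ± 39.97 FPKM (0.59, adjusted p = 6.61e-11 by limma). Plau (urokinase) and Thbd (thrombomodulin) fell by 0.79 and 0.75 on the log2 scale (adjusted p = 4.15e-08 and 5.03e-10 by limma).

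In the list of osteocrin receptors, natriuretic peptides and related genes, all 6 tested genes were called, 4 higher and 2 lower. Of all tested genes 64.8% were called, so nothing is read from this count. Npr3, the clearance receptor that osteocrin occupies, rose from 0.269 ± 0.0593 to 1.28 ± 0.114 FPKM (1.92 on the log2 scale), opposite in direction to Ostn. Its log2 fold change was 0.85 with a pseudocount of 1. Npr3 passed the filter only through its HFHG libraries (LG at most 0.319 FPKM), so its p-value is not given and its call is no support. Npr2, the receptor of C-type natriuretic peptide, rose from 28.9 ± 0.326 to 38.8 ± 0.962 FPKM (0.42, adjusted p = 6.23e-08 by limma). The cyclic GMP-dependent kinases went apart: Prkg1 rose by 0.70 and Prkg2 fell by 1.58 on the log2 scale (adjusted p = 9.68e-07 and 3.02e-09 by limma). Nppb fell from 0.869 ± 0.321 to 0.441 ± 0.124 FPKM (-0.81), although its groups overlapped. Without its LG libraries Nppb would not have passed the filter (HFHG 0.334 to 0.611 FPKM), so its p-value is not given and its call is no support.

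The genes whose pattern was most like that of a member were sought by Pearson's correlation of log2 levels over the 8 libraries, as a description. With the groups so far apart the correlation mostly repeats the group difference, and 1603 genes had r above 0.95 with Spp1, 1602 with Tmem119 and 1391 with Ostn. The most alike were Selenop, Cspg4b and Il1a for Spp1, Sparc, Thy1 and Cck for Tmem119, and Emp1, C1qbp and Pvr for Ostn, each with r of at least 0.998.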

How the data were processed

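Total RNA of 8 cultures of mouse TSCs, 4 in HFHG (25.5 mM glucose with 300 µM palmitic acid, per the methods of the study) and 4 in LG, was made into stranded mRNA libraries. The authors deposited FPKM values of 19301 genes per library. Per the submitters' processing notes, HISAT2 2.1.0 and build mm10 were used. The counting program, the annotation and the use of strand are not given in the sources used here. From the exact FPKM, whole reads were recovered for 19301 of 19301 genes, with library totals between 34308108 and 37362725. Intervals and limits for low genes cover counting error only.

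Genes with at least 0.5 FPKM in at least 4 libraries (11710) were fitted on log2(FPKM + 0.1) with limma 3.58.1 (lmFit, eBayes with trend) in R 4.3.3, HFHG minus LG, all 8 libraries, Benjamini-Hochberg adjustment, threshold 0.05. Fold changes of low genes are understated on this scale. The second threshold was a log2 fold change beyond 1 with p below 0.05. Reads of genes below the filter were compared as an exact binomial (Clopper-Pearson) interval at 95%. Recovery and fit were tested on simulated data. Other steps were run in Python 3.11.15 with scipy 1.17.1. Positions are from GENCODE M21, promoters from RefSeq.

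The members and the lists were chosen with earlier results of these data known. Named genes were the 10 members, the list genes with an adjusted p below 0.05 and an absolute log2 fold change of at least 0.58 (at most 3 per direction and list), the top marker of each marker list, Bglap and Col1a1. Others (Scx, Tnmd, Mkx, Egr1, Mb, Tek, Bglap2, Ggcx, Tnfrsf11b, Pros1, Postn, Fam20c, Slc20a1, Ank, Col1a2, Bmper, Twist1, Atf4, Cbfb, Bmp4, Capg, Cd44, Itgav, Npr2 and the genes given as below the filter) were named for their role after their values were seen. Alternatives were other pseudocounts, filters and scalings, voom on recovered reads, a replicate block, robust eBayes, and each library left out.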

Additional observations from a re-analysis of the deposited data

Results flagged for a closer look

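In 5 of 96 groups of 4 libraries, over 48 genes checked, 1 library lay far from the other 3 (its gap to the nearest, divided by the range, was above Dixon's 95% critical value). Chance gives about 1 in 20 such groups. Among the members, Ibsp in LG replicate 4 had 0.216 FPKM against 0.0141 to 0.0289 in the other LG libraries (gap over range 0.927). Runx2 in LG replicate 3 had 4.31 FPKM against 3.97 to 4.02 (0.854), on the side of the HFHG values. Sp7 in HFHG replicate 3 was at 0 against 0.00816 to 0.00862 FPKM (0.947), a step of 1 read. Among the other genes, Gas6 in LG replicate 2 had 82.2 FPKM against 87.3 to 87.8 (0.918), and Irx5 in LG replicate 4 had 1.53 FPKM against 0.881 to 0.958 (0.881). LG replicate 4 also stood apart on the second principal component of all tested genes, which held 4.18% of the variance (13.8, against -7.93 to -1.82 in the other LG libraries).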

How the results depend on the processing

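Over 18 alternatives, 760 of 768 gene values kept their direction and their side of the threshold. With quantile normalization, members called higher fell from 5 to 3: Spp1 and Runx2 lost their calls, with log2 fold changes of 0.04 and 0.14. Spp1 ranks 2 or 3 in each library, which fixes its quantile value; for Runx2 the cause was not tested. Over the other alternatives the log2 fold change of Spp1 lay between 0.66 and 0.74. Decorin (Dcn), at -0.01, changed sign to 0.28 with quantile normalization and was then called higher (adjusted p = 1.48e-06 by limma), changed to 0.0503 when rescaled to the same sum and, without 1 library, ranged from -0.0243 to 0.00868 (0.00336 without HFHG replicate 2 and 0.00868 without LG replicate 2). Lyz2, at -0.11, changed to 0.00621 with quantile normalization and lost its call. Comp reached 0.23 without LG replicate 4 and was then called. With a pseudocount of 1, genes past the 2-fold threshold fell from 431 to 197 (higher) and from 193 to 106 (lower). The larger pseudocount shrinks low genes: Npr3 had 0.85 and Itga4 0.53. Acta1, Bmp2, Cthrc1, Fbln7, Fgfr2, Irx5, Msx1, Nppb, Sparcl1 and Vwf also shrank by over 1.5 times, all still called. Leaving out 1 library gave 5 members higher and 1 lower each time, 37 to 39 of the other list genes higher and 22 to 23 lower. Rescaling to the same sum moved all calls to 4682 higher and 3002 lower, from 3983 and 3609. The replicate numbers do not pair the samples (correlations of same-numbered deviations -0.0736 to -0.00558), and with a replicate block 3841 genes were called higher and 3501 lower, with 5 and 1 of the members. Depth limits Sp7, and for Alpl and Ibsp the libraries of a group varied more than counting error.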

Other observations

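The remaining marker lists add the setting of these cells. Of 8 fibroblast markers, 7 were higher and 1 lower in HFHG, and Vim rose from 1514 ± 38.8 to 1868 ± 16.0 FPKM (SD, n = 4; adjusted p = 7.77e-08 by limma). Of the tendon markers, 7 of 10 were higher and 2 lower, and Dcn was not called except with quantile normalization (605 ± 16.0 and 609 ± 15.6 FPKM in HFHG and LG). The adipocyte gene Fabp4, a fatty acid carrier that macrophages also express, rose from 26.7 ± 2.61 to 68.4 ± 3.03 FPKM (adjusted p = 8.26e-10 by limma), while the other 4 adipocyte markers were below the filter. Of 8 chondrocyte markers 2 were tested, 1 was higher, and Comp was not called (5.01 ± 0.383 FPKM in HFHG and 4.60 ± 0.709 FPKM in LG). Of 6 endothelial markers 2 were tested and went apart. Tek rose by 0.47 on the log2 scale (adjusted p = 0.00576 by limma), and Vwf fell from 1.04 ± 0.0763 to 0.393 ± 0.0271 FPKM. Vwf passed the filter only through its LG libraries (HFHG at most 0.42 FPKM), so its p-value is not given. In the osteoblast list, the gene with the highest mean over all libraries was Col11a2, a collagen XI chain, with 0.451 ± 0.174 and 0.303 ± 0.104 FPKM in HFHG and LG.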
